A study of Mus musculus with 31 samples.

Results

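The transcriptional difference between RPL10 R98S and RPL10 WT cells was described from the total mRNA libraries that accompany a polysomal RNA experiment, namely 17 of the 31 libraries of the series. The libraries were chosen by their labels as total mRNA, 9 of them R98S and 8 WT, and genes were described when their mean value over the 17 libraries was at least 10, which held for 11133 of 41255 genes listed. All cells were Ba/F3, a mouse lymphoid cell line that needs interleukin-3 (IL-3) to grow, in which shRNA knocked down endogenous Rpl10 and a retrovirus carried human RPL10 cDNA, as the WT or the R98S allele. R98S libraries came from clones 11, 13 and 35 and WT libraries from clones 28, 29 and 36, each clone grown from a single cell. Every clone was sequenced up to 3 times under a replicate number, and the study calls these libraries technical replicates, so each genotype rests on 3 independent clones. The p-values of the main fit use all 17 libraries, with a single clone correlation of 0.105 for all genes. They therefore rest more on the spread between libraries than on that between clones. The study left out a further total mRNA library, of WT clone 36 with number 1, because its profile grouped with R98S; it was not analysed here, and all counts below are conditional on that choice. The labels name no treatment, and the human RPL10 allele is the difference they give between the groups.

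RPL10 (uL16) joins the large ribosomal subunit late in its assembly, near the site where tRNA is accommodated, and its R98S change recurs in T-cell acute lymphoblastic leukemia. Cells with an altered ribosome can differ in their mRNA pool as well as in translation, because growth signalling, the cell cycle, amino acid supply and protein turnover all respond to ribosome output. Ba/F3 cells divide under IL-3, whose receptor pairs the Il3ra chain with the common beta chains Csf2rb and Csf2rb2 and signals through JAK2 and STAT5.

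The unit of all levels below is the normalized count, a read count divided by a size factor of the library, and log2 fold changes are R98S minus WT on the scale of log2(value + 1). A gene is called higher or lower when its limma adjusted p, with the replicate number as a block and the libraries of a clone treated as correlated, was under 0.1, and a signed value after a gene name is its log2 fold change. Libraries held 9338671 to 22059792 reads. On a scale from the mean of WT (0%) to the mean of R98S (100%) over the called genes, the number 2 libraries of R98S clones 13 and 35 lay at 75.7% and 76.7%, the other 7 R98S libraries spanned 91% to 131%, and WT spanned -20.8% to 14.6%.

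Mouse Rpl10, the knocked-down gene, had 901 to 2984 in R98S (median 1222) and 620.3 to 5715 in WT (median 1352), and the ranges overlapped (log2 fold change -0.14 with SE 0.31, limma adjusted p 0.78). Because the knockdown is present in both genotypes and the mouse gene can take up reads of the human cDNA, this value does not check the labels. Psph, the phosphoserine phosphatase that completes serine synthesis and that the study follows, had 122.8 to 452 in R98S (median 249.9) and 52.4 to 84.3 in WT (median 64), so that the lowest R98S library exceeded the highest WT library. Its log2 fold change within numbers 1, 2 and 3 was 2.67, 1.17 and 2.11. As for the cell type, 3 of 15 early B cell markers reached a mean of 10 (Cd79a, Cd79b and Ptprc), while Pax5, Rag1, Rag2 and Il7r were at 0 or nearly so in every library. Among 7 mast cell and basophil markers 5 reached it, led by the transcription factor Gata2 (14048 to 24814 in R98S (median 19448) and 18218 to 28941 in WT (median 21576)), with Kit at or near 0 and Fcer1a at 0 in most libraries. Of 8 myeloid markers 3 reached it and 1 was called lower, and of 7 non-blood markers Pecam1 alone did, at similar levels in both genotypes. The summed level of the mast cell and basophil markers, nearly all of it from Gata2, was 14343 to 25582 in R98S and 18519 to 29173 in WT. Of these markers 3 were called higher and 0 lower, namely Cpa3 (3.33), Mcpt8, a basophil protease (3.17), and Hdc, which makes histamine (1.36). The call of Mcpt8 was lost without the 2 libraries between the genotypes (limma adjusted p 0.143), where Hdc was higher by 1.02, and the calls of Mcpt8 and Hdc were lost without number 2 (limma adjusted p 0.376 and 0.177). Of 9 T cell markers 3 reached a mean of 10, of which 2 were called higher and 1 lower, and of 6 erythroid markers 4 reached it, of which 2 were called lower. The label of a lymphoid line is therefore borne out by few early B cell and T cell genes, and genes of several blood lineages were read from the same clones.

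Of the 11133 genes, 3604 (32.4%) were called different, 1705 (15.3%) higher and 1899 (17.1%) lower in R98S, and 4121 had an unadjusted limma p under 0.05. The called genes were spread over a wide range of sizes, as 1835 (50.9%) changed by less than 0.5 on the log2 scale, 1148 (31.9%) by 0.5 to 1, here called moderate, 549 (15.2%) by 1 to 4, called strong, and 72 (2%) by more than 4. In all, 621 genes (5.58% of those tested) were called with a change of at least 1. The moderate genes were split into 525 higher and 623 lower, and the strong genes into 266 higher and 283 lower. The genes over 4 were mostly higher in R98S (48 against 24).

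The level and the stability of a call moved with its size. The median level was 946 normalized counts for the genes under 0.5, 496 for moderate and 77.8 for strong genes, so large changes were found mainly among weakly expressed genes. Clone means of R98S and WT were apart, with no overlap of 3 against 3, in 4261 of all genes tested (38.3%) and in 3137 of those called (87%). The genotypes did not overlap in any library for 393 genes (3.53% of all tested), which were 2.23% of the called genes under 0.5, 12.2% of the moderate, 28.4% of the strong and 77.8% of those over 4. Within all 3 replicate numbers 3521 called genes (97.7%) had the sign of the pooled fold change. The pooled value is made from the same libraries and the genes were picked by it, so this agreement is no independent support. Taken alone, numbers 1, 2 and 3 gave 1366, 241 and 1047 calls. A comparison of 3 clone means against 3, which does not use the libraries of a clone as replicates, called 2861 genes (25.7%), and this kept 61.1% of the genes under 0.5, 88.6% of the moderate and 89.1% of the strong genes.

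**Figure D1:**
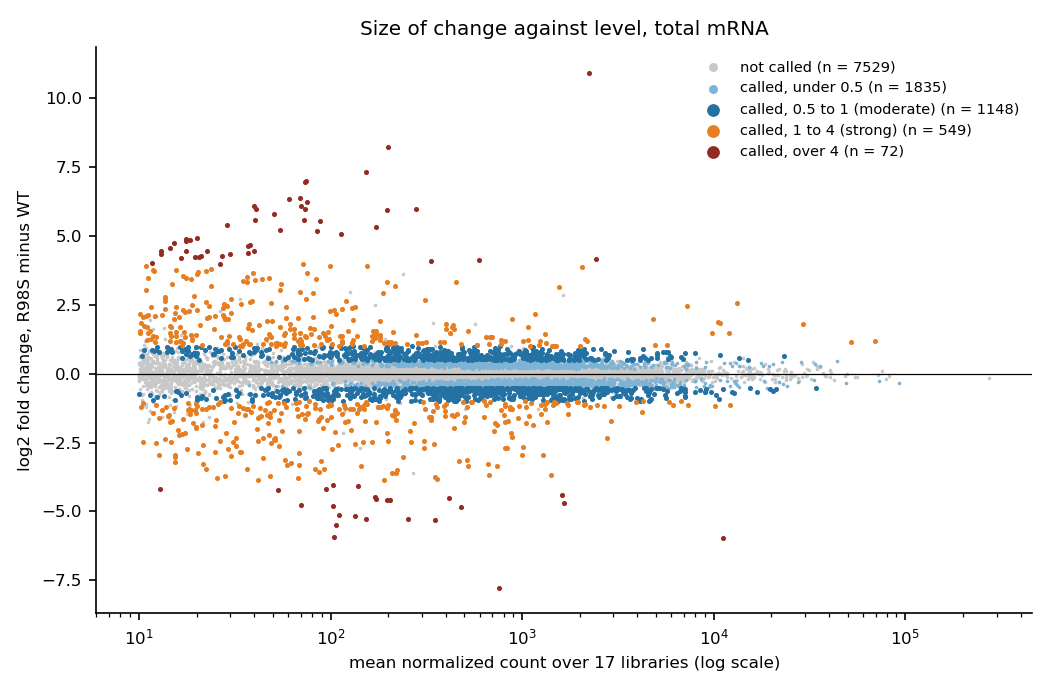
Log2 fold change of R98S against WT (vertical axis, log2(value + 1) scale) against the mean normalized count over 17 libraries (horizontal axis, log scale) for each of 11133 genes. Grey points are genes not called, and colours mark called genes by size, which are 1835 under 0.5, 1148 moderate, 549 strong and 72 over 4, with the larger changes towards the low levels on the left.

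The 12 strong genes with the smallest adjusted p in each direction, limited to a mean of 100 or more and to clone means without overlap, did not belong to a single pathway. Grb7, an SH2 adaptor that binds receptor tyrosine kinases, had 611 to 941 in R98S (median 748) and 198 to 322 in WT (median 255) (log2 fold change 1.55 with SE 0.12, limma adjusted p 1.0e-07). Lgr4, the receptor for R-spondins that strengthens Wnt signalling, had 408 to 805 in R98S (median 539) and 148 to 258 in WT (median 200.3) (log2 fold change 1.62 with SE 0.16, limma adjusted p 1.6e-06). Every R98S library was above every WT library for both genes. Ccrn4l, or nocturnin, a rhythmically expressed phosphatase of NADPH, had 31177 to 53242 in R98S (median 43738) and 8557 to 17796 in WT (median 12716) (log2 fold change 1.80 with SE 0.14, limma adjusted p 1.1e-07), again without overlap. Slc38a6, a member of the neutral amino acid transporters, was higher by 1.88 on the log2 scale, Kif24, a kinesin of the centriole, by 2.19, Alpk3, a kinase-like protein known from muscle, by 1.70, and Arl14ep by 2.46. Tulp1, a tubby family protein of photoreceptors, stood out by its size (192 to 578 in R98S (median 352) and 18.5 to 50.5 in WT (median 32.1), log2 fold change 3.35 with SE 0.25, limma adjusted p 4.6e-08). Rab3gap1, a subunit of the activator of Rab3 GTPases, Fank1 and Pitpnm2, a phosphatidylinositol transfer protein, were higher by 1.18, 1.11 and 1.14. The remaining gene, Gm10040 (3.87), is annotated as a pseudogene, and its reads may come from a related gene.

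The 12 genes on the lower side had equally varied roles. Lgmn, the lysosomal cysteine protease legumain, had 58.6 to 574 in R98S (median 210.5) and 614 to 4936 in WT (median 2308) (log2 fold change -3.69 with SE 0.41, limma adjusted p 9.0e-06). Ccr1, a receptor for inflammatory chemokines, had 30.3 to 519.6 in R98S (median 132) and 566 to 2003 in WT (median 1467) (log2 fold change -3.33 with SE 0.40, limma adjusted p 1.8e-05). Neither gene had an R98S library that reached the lowest WT library. Gpr97, an adhesion G protein coupled receptor of granulocytes, had 175 to 378 in R98S (median 236.4) and 597 to 789 in WT (median 673) (log2 fold change -1.45 with SE 0.15, limma adjusted p 3.8e-06). Gclm, the modifier subunit of the enzyme that starts glutathione synthesis, had 1910.2 to 3989 in R98S (median 2620.0) and 4627 to 6419 in WT (median 5524) (log2 fold change -1.04 with SE 0.11, limma adjusted p 5.3e-06). Lmna, which encodes the nuclear lamins A and C, was lower by a similar amount (-1.01). Atp2b1, the pump that exports calcium across the plasma membrane, fell by 1.20 on the log2 scale, and Atp8b4, a phospholipid-transporting ATPase, fell by 2.08. Spata13, an exchange factor for Rac and Cdc42, had 17.9 to 182 in R98S (median 40.7) and 275 to 539 in WT (median 437) (log2 fold change -3.02 with SE 0.37, limma adjusted p 2.2e-05). Sla2 (-2.67), an adaptor that dampens antigen receptor signalling, shares 23.6% of its exonic bases with Rab5if on the opposite strand, and St3gal4 (-1.11), a sialyltransferase, shares 14.1% with another transcript, so both levels are uncertain. Tuft1 was lower, at -1.48, and Usp17la (-2.96), a deubiquitinase with near-identical copies, has a level that depends on how reads of those copies were counted.

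**Figure D2:**
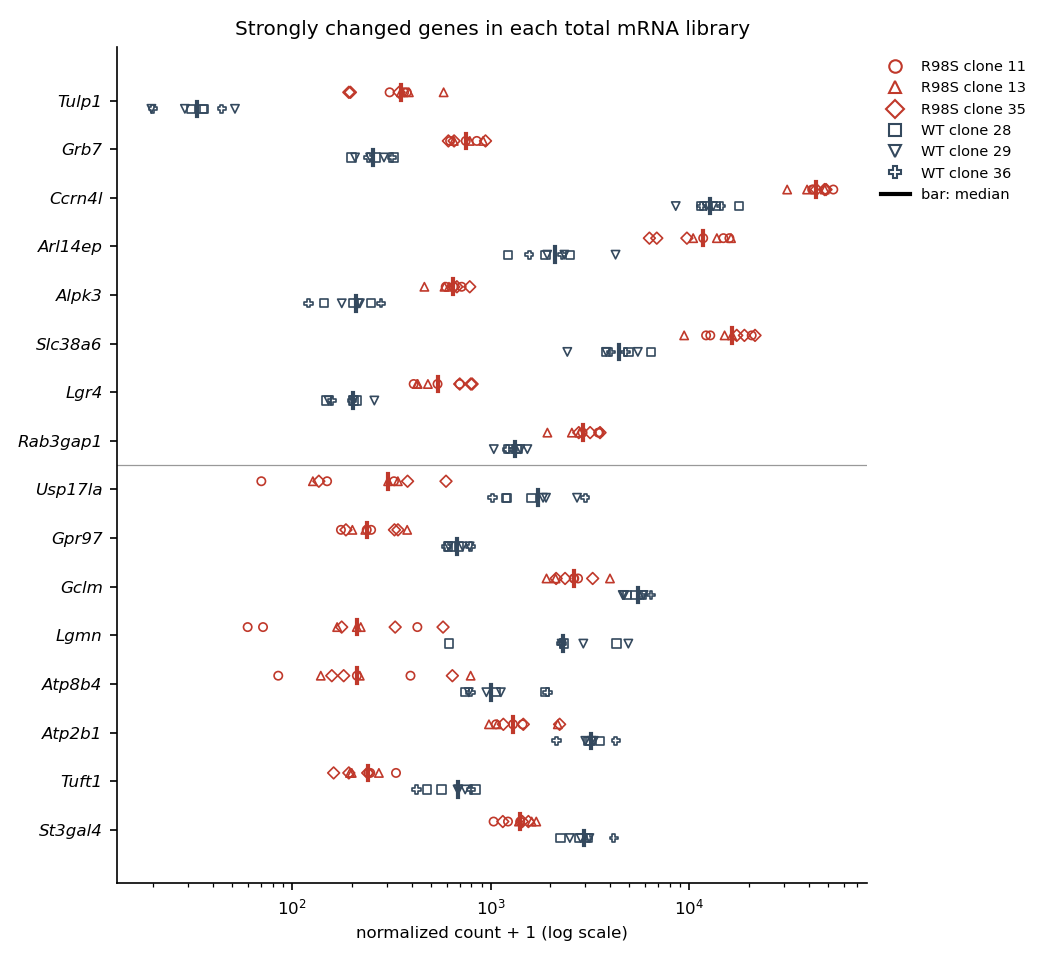
Normalized counts (horizontal axis, log scale of value + 1) of 16 strongly changed genes in each of the 17 total mRNA libraries, with a point for each library and a vertical bar at the median of each genotype. R98S libraries of clones 11, 13 and 35 and WT libraries of clones 28, 29 and 36 are drawn with a separate marker for each clone, and the R98S medians of the upper 8 genes lie to the right of WT while those of the lower 8 lie to the left.

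The moderate genes were better expressed, and the 8 with the smallest adjusted p in each direction had varied roles. Slc9a3r1, the scaffold NHERF1 that anchors membrane proteins to the cortex, had 2553 to 3746 in R98S (median 2874) and 1439 to 1841 in WT (median 1575) (log2 fold change 0.91 with SE 0.09, limma adjusted p 2.5e-06). Ric8, a chaperone of G protein alpha subunits, was higher by 0.91, Rgp1, part of the exchange factor of Rab6, by 0.71, and Zfp207, a kinetochore-binding zinc finger protein, by 0.79. Tex10, a component of a complex that matures the large ribosomal subunit, had 1000.2 to 2010.4 in R98S (median 1514) and 685 to 1117 in WT (median 881) (log2 fold change 0.79 with SE 0.10, limma adjusted p 3.0e-05). Pnpla7, a lysophospholipase, B3galnt2, a glycosyltransferase of dystroglycan, and Fam53b completed the 8 genes, at 1.00, 0.72 and 0.81. Among the genes lower in R98S, Cbfa2t3, the co-repressor ETO2 of blood progenitors, had 2114 to 3384 in R98S (median 2974) and 3869 to 7504 in WT (median 5670.0) (log2 fold change -0.99 with SE 0.11, limma adjusted p 5.4e-06). Orc6, a subunit of the origin recognition complex, had 739 to 1069 in R98S (median 885) and 1274 to 2428 in WT (median 1629.8) (log2 fold change -0.94 with SE 0.13, limma adjusted p 8.3e-05). Svil, the actin-binding protein supervillin, was lower, at -0.92, Xxylt1, a xylosyltransferase of Notch, at -0.91, Slc25a23, a mitochondrial carrier of ATP, at -0.83, and Clcc1, a chloride channel of the endoplasmic reticulum, at -0.74. N4bp1 and Klhdc10 changed least of the 8, with -0.60 and -0.57.

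To describe functions beyond single genes, 52 lists written by hand were counted. They hold 3432 of the tested genes, of which 1176 were called, and the shares to set them against are 15.3% higher and 17.1% lower over all genes tested, with a median log2 fold change of 0.00. The share called lower was largest in the cyclin and mitosis list (61.4%) and next in the glycolysis and hypoxia list (51.9%). The share called higher was largest in the few histone genes tested (62.5%), followed by antigen receptor signalling (33.3%), antigen presentation (31.0%) and lysosome genes (31.0%). Of 70 listed histone genes 8 were tested, and members low in WT could pass the filter through their R98S levels. Cytosolic ribosomal proteins lay at the other end, with 9 of 81 genes called (11.1%).

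**Figure D3:**
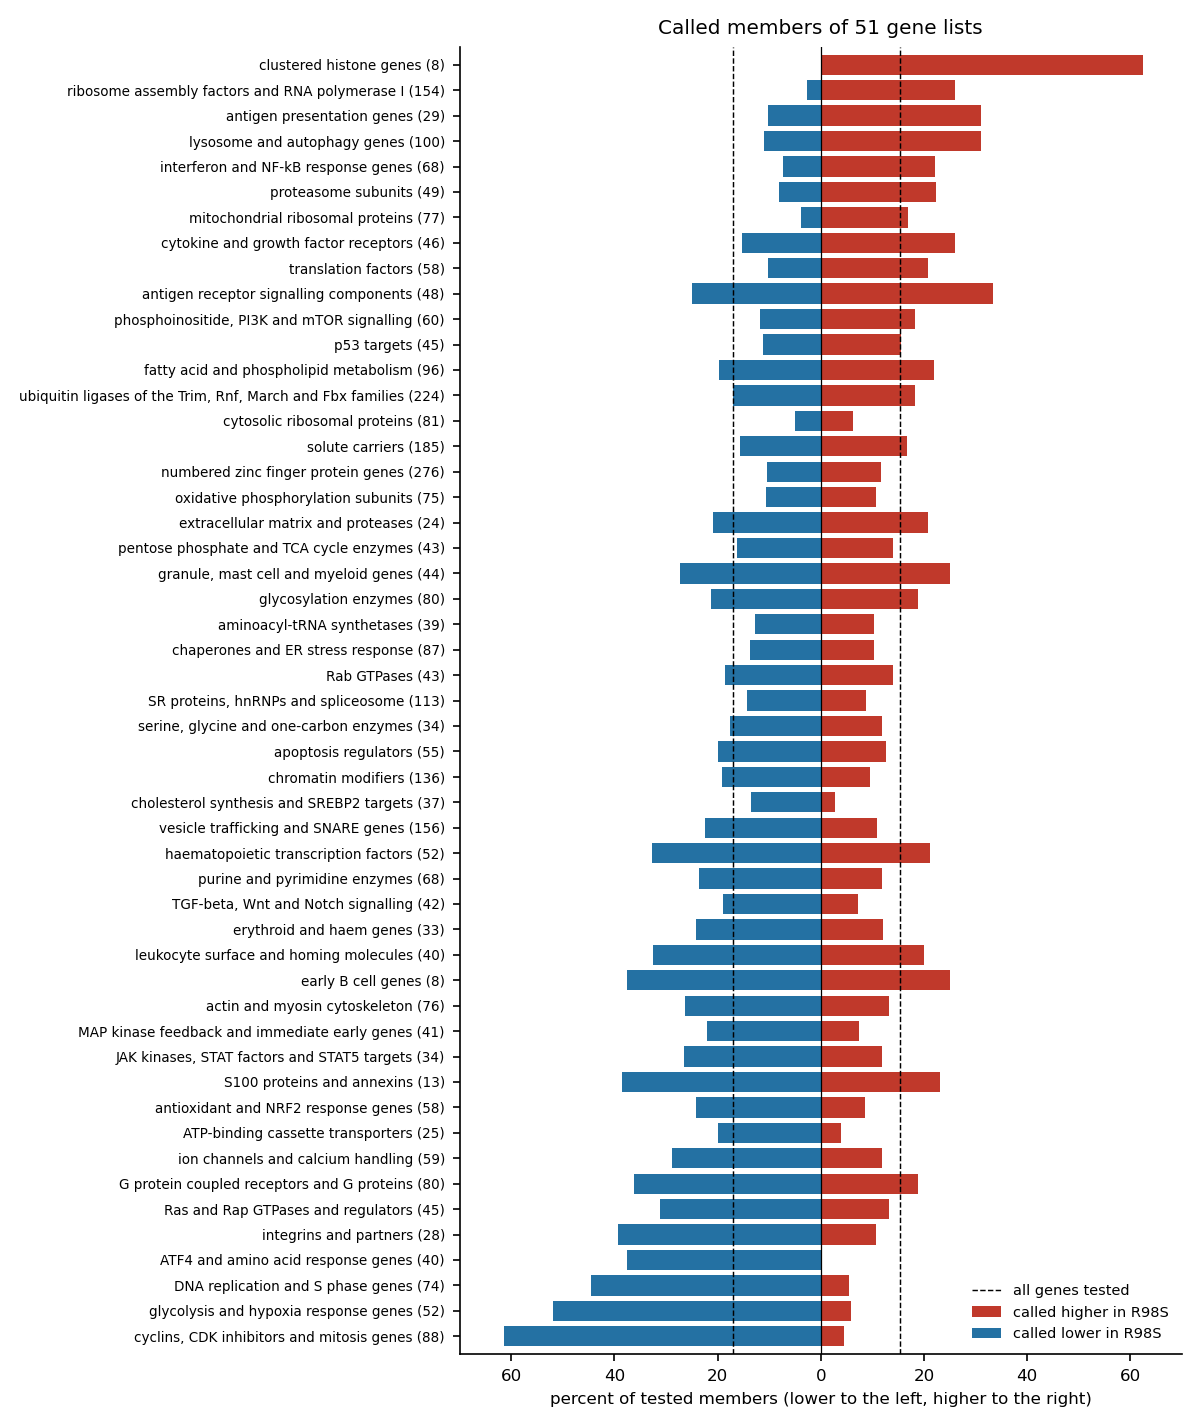
Percent of the tested members of each of 51 gene lists called higher (bars to the right) or lower (bars to the left) in R98S, with the number of tested members behind each list name. Dashed lines mark the shares over all 11133 genes, 15.3% higher and 17.1% lower, and the lower bar of the cyclin and mitosis list reaches 61.4%.

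Most genes of mitosis were lower in R98S. Of 88 tested cyclins, CDK inhibitors and mitosis genes, 54 (61.4%) were called lower and 4 higher, with a median log2 fold change of -0.39. The lower genes fell by less than 1 on the log2 scale, and the 54 genes lie on 18 chromosomes. Ccnd3, a D-type cyclin that drives entry into the cycle, had 2121 to 3462 in R98S (median 2422) and 3236 to 5541 in WT (median 4146) (log2 fold change -0.71 with SE 0.10, limma adjusted p 1.2e-04). Racgap1, which organises the central spindle, had 2904 to 4094 in R98S (median 3807) and 5035 to 7926 in WT (median 5930.1) (log2 fold change -0.75 with SE 0.12, limma adjusted p 2.3e-04). Cdk1, the kinase of mitotic entry, had 1540.5 to 2243 in R98S (median 1962) and 2420.3 to 3324 in WT (median 2831) (log2 fold change -0.57 with SE 0.10, limma adjusted p 4.7e-04), again without overlap. Cenpe, a kinesin of the kinetochore, Ccnf, a cyclin-like substrate receptor, and Ckap2, a spindle protein, were lower, at -0.84, -0.70 and -0.66. The list median within numbers 1, 2 and 3 was -0.22, -0.34 and -0.54. Library by library the list median, relative to the WT libraries of the same number, was -0.705 to -0.105 in R98S and -0.397 to 0.414 in WT. By this measure 4 of 9 R98S libraries lay below all of WT. Here and below, a WT library was set against the other WT libraries of its number. This widens the WT range compared with a mean that includes the library. Without the 2 libraries between the genotypes 50 genes were lower and 6 higher, and without number 3 the lower calls came to 32. Birc5, or survivin, which acts at the centromere, was also lower (-0.43, limma adjusted p 0.00821).

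Genes of DNA replication were also more often lower than higher, with a list median nearer to 0. Of 74 tested, 33 (44.6%) were lower and 4 higher, with a median of -0.22. Besides Orc6 these were Gins3, part of the replicative helicase (-0.88), E2f8, a repressor of the E2F family (-0.90), Rrm2, the subunit of ribonucleotide reductase that varies with S phase (-0.99), and Rnaseh2a, which removes RNA from DNA (-0.51). For Rrm2 the values were 2239 to 4252 in R98S (median 2834) and 4135 to 12436 in WT (median 5207), with a limma adjusted p of 8.5e-04. Chaf1a (-0.58), the histone chaperone subunit at the fork, shares 52.5% of its exonic bases with Ubxn6 on the opposite strand. The list median within the 3 numbers was -0.29, -0.04 and -0.33, and without R98S clone 11, WT clone 28, WT clone 29 or number 3 the lower calls were 21, 18, 15 and 13. Per library the list median was -0.465 to -0.023 in R98S and -0.340 to 0.238 in WT, and 2 R98S libraries lay below all of WT. Of the 37 calls 24 were also made with 3 clone means against 3. Of 68 purine and pyrimidine enzymes 16 were lower and 8 higher, with Dut, which removes dUTP, at -0.59 and Cda, cytidine deaminase, at -1.73. Clustered histone genes went the other way, as 5 of 8 tested members were higher (median 1.00). The filter used the mean over both genotypes, so members low in WT could pass through their R98S levels, which favours higher calls. Hist1h1c, a linker histone, had 640.4 to 2985 in R98S (median 1501) and 211 to 747 in WT (median 431) (log2 fold change 1.70 with SE 0.34, limma adjusted p 0.00191), and Hist1h2bc was higher by 1.73. Only 8 of 70 listed histone genes passed the filter on low values, most histone mRNAs lack a poly(A) tail and are poorly captured by a poly(A) kit, and the genes have near-identical copies, so these levels are uncertain.

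Promoter runs are shown for a few members of the lists because textbooks name an element for each of these groups, although most of the lists had it in a minority of their promoters. The windows are from RefSeq on build GRCm38.p6 and reach from 250 bases before a start to 50 after it, and 8243 of the tested genes were matched. The cell cycle homology region (CHR) was searched as TTTGAA on both strands. It was found in 17.9% of 32851 promoters and 14.3% of those of the tested genes, in 30 of 44 matched mitosis genes called lower (68.2%) and in 14 of 27 not called (51.9%). The E2F element, searched as TTTNGCGC on both strands, was in 1.38% of promoters and 3.05% of those of the tested genes, in 8 of 29 matched replication genes called lower (27.6%) and in 6 of 29 not called (20.7%). The members shown are genes called in the direction more frequent in their list, here lower, with the smallest adjusted p among those with the letters upstream of the start, chosen after their values were seen, and each run of 60 bases lies upstream of the start, 5′ to 3′ on the strand of the gene, with the match in capitals.
Ckap2 (chr8:22185888-22185947, minus strand, CHR): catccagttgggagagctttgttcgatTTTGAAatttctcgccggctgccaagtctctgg
Cdk1 (chr10:69352913-69352972, minus strand, CHR): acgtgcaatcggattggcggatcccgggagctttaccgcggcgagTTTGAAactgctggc
Ccnf (chr17:24251410-24251469, minus strand, CHR): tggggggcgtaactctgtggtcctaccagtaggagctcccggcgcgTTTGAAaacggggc
Uhrf1 (chr17:56304101-56304160, plus strand, E2F): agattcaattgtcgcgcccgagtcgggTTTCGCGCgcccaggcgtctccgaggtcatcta
Pola1 (chrX:93632261-93632320, minus strand, E2F): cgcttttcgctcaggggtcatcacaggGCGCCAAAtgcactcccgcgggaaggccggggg
Uhrf1, a reader of hemimethylated DNA, and Pola1, the catalytic subunit of polymerase alpha, were lower, at -0.53 and -0.40, and both calls were lost without number 3 (limma adjusted p 0.127 and 0.191).

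Glycolysis and hypoxia response genes were far more often lower than higher. Of 52 tested, 27 (51.9%) were lower and 3 higher, with a median of -0.33. Slc2a3, the high-affinity glucose transporter GLUT3, had 3533 to 12931 in R98S (median 4459) and 7061 to 32793 in WT (median 12477) (log2 fold change -1.15 with SE 0.18, limma adjusted p 3.0e-04). Pfkp, a phosphofructokinase, and Pgam1, a phosphoglycerate mutase, were lower, at -0.91 and -0.71. In contrast Slc16a3, the lactate exporter MCT4, had 61.9 to 118 in R98S (median 84.8) and 13.7 to 40.5 in WT (median 28.8) (log2 fold change 1.62 with SE 0.20, limma adjusted p 3.0e-05), and Car9, a carbonic anhydrase of the cell surface, was higher by 0.79. Arnt, the partner of the hypoxia-inducible factors, was lower (-0.57, limma adjusted p 0.00302). The median within numbers 1, 2 and 3 was -0.22, -0.54 and -0.28, and the lower calls came to 10 without number 2, 12 without WT clone 28 and 16 without WT clone 29. In the mitochondrion, 8 of 75 oxidative phosphorylation subunits were higher and 8 lower. Of 43 enzymes of the pentose phosphate pathway and the TCA cycle 6 were higher, among them Taldo1, or transaldolase (0.67), and 7 lower, among them Pdha1, of pyruvate dehydrogenase (-0.41).

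Amino acid response genes showed lower calls and no higher ones. Of 40 tested genes of the response to ATF4, the transcription factor induced by amino acid lack, 15 (37.5%) were lower and 0 higher, with a median of -0.41. Most of this came from 1 replicate number, as the median was -0.12 and -0.11 within numbers 1 and 2 and -0.97 within number 3, and the lower calls came to 4 without number 3 and 8 without WT clone 29. Atf5, a factor of the same family, had 90.3 to 163 in R98S (median 124) and 141 to 2071 in WT (median 289) (log2 fold change -1.58 with SE 0.40, limma adjusted p 0.00844), and a single R98S library reached the range of WT. Nupr1, a stress-induced chromatin protein, was lower, at -2.43, Gpt2, which forms glutamate from alanine, at -1.14, Sars, the seryl-tRNA synthetase, at -0.65, and Slc1a4, which carries serine and alanine, at -0.90. Eif4ebp1, a repressor of cap-dependent translation, was lower, at -0.67, and 7 of 9 R98S libraries were below all of WT. Without number 3 Nupr1 and Slc1a4 no longer passed the test (limma adjusted p 0.152 and 0.305). In the serine, glycine and one-carbon list, 4 of 34 were higher and 6 lower. Gldc, which cleaves glycine in the mitochondrion, was the strongest beside Psph (30.3 to 187 in R98S (median 53.9) and 5.02 to 46.3 in WT (median 17.7), log2 fold change 1.91 with SE 0.40, limma adjusted p 0.00235), while Mthfd1l, of the mitochondrial folate pathway, was lower, at -0.40.

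Promoter matches for these 2 groups were described in the same way, with members shown from the genes called lower. The amino acid response element (CARE), searched as TGATGNAA on both strands, was in 3.97% of promoters and 2.77% of those of the tested genes, in 6 of 14 matched ATF4 list genes called lower (42.9%) and in 3 of 17 not called (17.6%). The hypoxia response element (HRE), searched as ACGTGC on both strands, was in 5.91% of promoters and 9.44% of those of the tested genes, in 11 of 24 matched genes called lower (45.8%), in 3 of 3 called higher and in 8 of 20 not called (40%). Capitals mark the match.
Nupr1 (chr7:126625548-126625607, minus strand, CARE): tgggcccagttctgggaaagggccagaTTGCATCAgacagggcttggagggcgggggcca
Herpud1 (chr8:94386290-94386349, plus strand, CARE): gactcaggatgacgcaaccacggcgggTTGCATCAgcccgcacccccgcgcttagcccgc
Pgam1 (chr19:41911730-41911789, plus strand, HRE): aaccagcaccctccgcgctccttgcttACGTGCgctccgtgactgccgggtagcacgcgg
Pgk1 (chrX:106186941-106187000, plus strand, HRE): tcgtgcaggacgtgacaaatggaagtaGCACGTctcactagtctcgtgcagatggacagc
Herpud1, which serves the removal of misfolded proteins from the endoplasmic reticulum, and Pgk1, phosphoglycerate kinase, were lower, at -0.67 and -0.65, and the call of Herpud1 was lost without number 3 (limma adjusted p 0.216).

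Of the machinery that makes ribosomes, assembly factors were more often higher than lower, while few ribosomal proteins were called. Among 154 tested assembly factors and RNA polymerase I subunits, 40 (26.0%) were higher and 4 lower, with a median of 0.22. Polr1e, a subunit of RNA polymerase I, had 466 to 1266 in R98S (median 856) and 218 to 844 in WT (median 359) (log2 fold change 1.07 with SE 0.21, limma adjusted p 0.00153), and Nol6, Nol12 and Ebna1bp2, which act in the processing and assembly of pre-ribosomes, were higher by 1.03, 0.95 and 0.76. The pooled value was not shared by the replicate numbers, since the median was -0.05 within number 1, where 4 genes were higher and 4 lower, and 0.38 and 0.31 within numbers 2 and 3. Per library the list median was -0.177 to 0.557 in R98S and -0.440 to 0.653 in WT, and no R98S library lay above all of WT. The higher calls came to 18 without R98S clone 11, 10 without WT clone 28, 13 without number 2 and 14 without number 3. Of 81 cytosolic ribosomal proteins 5 were higher and 4 lower, with none changed by 1 or more on the log2 scale. Mitochondrial ribosomal proteins (77 tested) had 13 higher and 3 lower, translation factors (58) 12 higher and 6 lower, and aminoacyl-tRNA synthetases (39) 4 higher and 5 lower. Eef2k, the kinase that slows elongation, was the most changed of the translation factors named here (0.84, limma adjusted p 0.00487), and Eif2a was lower (-0.65).

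**Figure D4:**
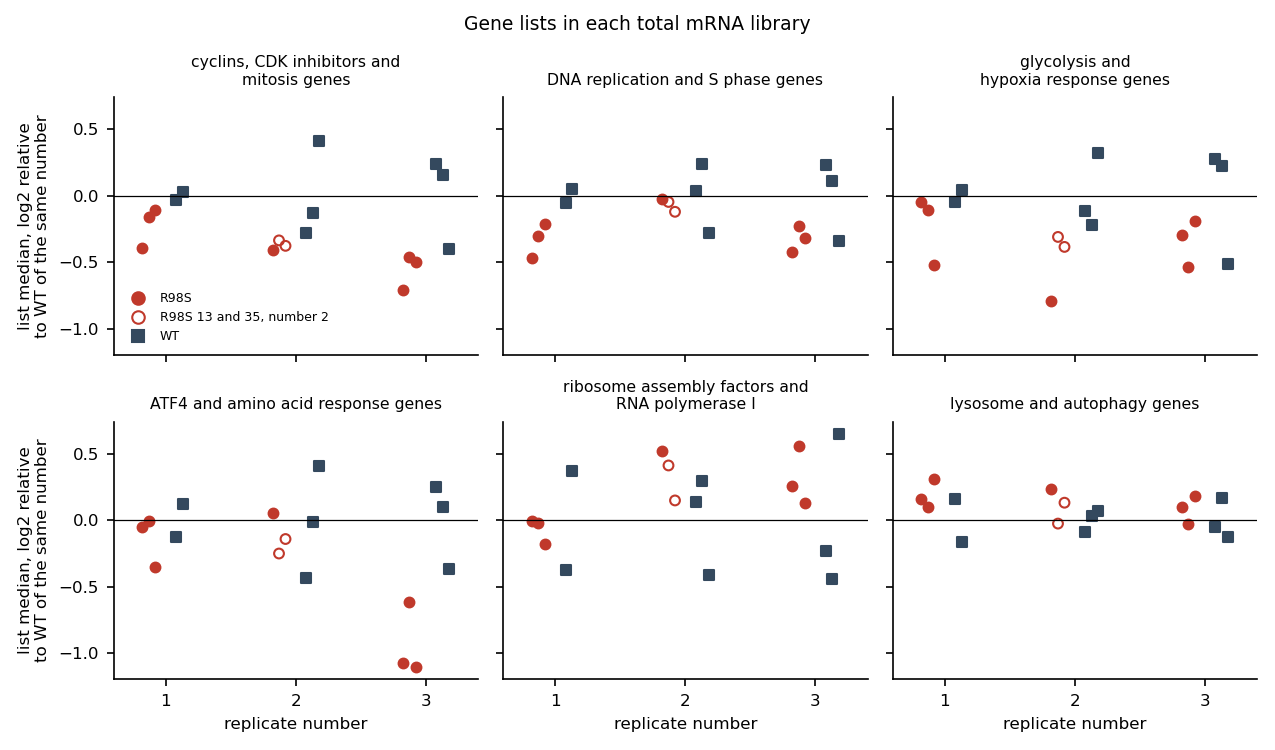
Median log2 value of the tested members of 6 gene lists in each total mRNA library, by replicate number along the horizontal axis. The vertical axis (log2) is relative to the mean of the WT libraries with the same replicate number, leaving out the library itself where it is WT. Circles are R98S and squares WT, open circles mark the 2 R98S libraries between the genotypes, and the R98S points of the ATF4 list lie far below 0 in number 3 alone.

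On the side of protein breakdown, lysosome and autophagy genes were more often higher than lower. Of 100 tested, 31 (31.0%) were higher and 11 lower, with a median of 0.12 and within-number medians of 0.20, 0.10 and 0.13. Tpp1, a lysosomal peptidase, had 2614 to 3938 in R98S (median 3708) and 1873 to 2362 in WT (median 2146) (log2 fold change 0.68 with SE 0.10, limma adjusted p 1.2e-04). Cln3, a lysosomal membrane protein, and Atp6v0b, a subunit of the proton pump, were higher by 0.83 and 0.62. The list also holds Lgmn, which was lower (-3.69). Counted without the genes of chromosomes 1, 3, 4, 7, 8 and 14, an alternative added after the data were seen, 16 members were higher and 8 lower. The higher calls were fewest without WT clone 28 (14), followed by number 3 (16), number 1 (18), WT clone 29 (19) and number 2 (20). The proteasome list had 11 of 49 higher and 4 lower, led by the activator subunits Psme1 (0.56) and Psme2 (0.65), which are known to be induced by interferon. Of the 11 higher genes 7 lie on chromosomes 1, 4, 7 and 14. Per library the proteasome median was -0.139 to 0.350 in R98S, within the -0.218 to 0.370 of WT. Of 29 antigen presentation genes 9 were higher and 3 lower, with a median of 0.27 and within-number medians of 0.43, 0.06 and 0.23, and 3 of 9 R98S libraries lay above all of WT. H2-T23, a nonclassical class I molecule with related copies, was higher by 1.24, while Nlrc5, the activator of class I genes, was lower, at -1.58. The element that TFEB binds (CLEAR), searched as GTCACGTG on both strands, was in 2.25% of promoters and 5.05% of those of the tested genes, in 6 of 24 matched lysosome genes called higher (25%), in 2 of 8 called lower (25%) and in 10 of 49 not called (20.4%). Runs upstream of the start in 2 of the genes called higher are given with the match in capitals, where the capitals of Cln3 cover overlapping matches of both strands.
Atp6v0b (chr4:117887335-117887394, minus strand, CLEAR): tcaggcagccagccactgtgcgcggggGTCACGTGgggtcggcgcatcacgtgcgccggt
Cln3 (chr7:126583325-126583384, minus strand, CLEAR): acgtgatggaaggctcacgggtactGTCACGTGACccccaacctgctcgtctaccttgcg

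At the cell surface the beta chains of the IL-3 receptor were higher, while its alpha chain Il3ra did not pass the test (0.12, limma adjusted p 0.674). Csf2rb had 59641 to 119306 in R98S (median 95722) and 28599 to 54062 in WT (median 41161) (log2 fold change 1.18 with SE 0.16, limma adjusted p 6.2e-05), and Csf2rb2 had 44593 to 97783 in R98S (median 74860.2) and 22999.9 to 37814 in WT (median 30302) (log2 fold change 1.17 with SE 0.14, limma adjusted p 1.8e-05). The pair are near-identical copies, so their shares of the reads are uncertain, but neither chain had an R98S library as low as the highest of WT. In the whole list of 46 cytokine and growth factor receptors 12 were higher and 7 lower. Igf1r, the receptor for insulin-like growth factor, was higher by 1.02, and Tnfrsf1a, a receptor for TNF, was lower, at -0.61. Downstream of them, 4 of 34 JAK, STAT and STAT5 target genes were higher and 9 lower, including Socs5, an inhibitor of cytokine signalling (-0.76), Bcl2l1, which encodes the survival factor BCL-XL (-1.07), and Id1 (-2.94). Of the 13 calls in this list 7 were also made with 3 clone means against 3. For Bcl2l1 the libraries gave 346 to 1338 in R98S (median 608) and 469.7 to 2488 in WT (median 1378). Of 41 MAP kinase feedback and immediate early genes 3 were higher and 9 lower, or 29.3% called against 32.4% of all genes tested. The phosphatases Dusp6 and Dusp4, which switch off ERK, were lower, at -0.96 and -1.16. The clone means alone gave 7 of these 12 calls. Per library the list median was -0.610 to 0.509 in R98S and -0.607 to 0.779 in WT.

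Among 80 tested G protein coupled receptors and G proteins, 29 (36.2%) were lower and 15 higher, with a median of -0.16, and 13 of the lower genes fell by more than 1. The lower calls came to 19 without WT clone 28 and 18 without number 3. Rgs2, which ends signalling of G protein alpha subunits, had 152 to 369 in R98S (median 176) and 269.7 to 961 in WT (median 844) (log2 fold change -1.52 with SE 0.22, limma adjusted p 1.1e-04). Gna15, an alpha subunit of blood cells, was lower, at -1.02. Gng2 (-3.60), a gamma subunit, was lower too, but 20.4% of its exonic bases lie in another transcript. Lpar6, a receptor for lysophosphatidic acid, was higher (64.6 to 132 in R98S (median 88.4) and 18.9 to 56.6 in WT (median 34.6), log2 fold change 1.45 with SE 0.20, limma adjusted p 6.2e-05). The small GTPases Rap1b and Rap2a, which control integrin adhesion, were lower, at -0.91 and -0.86, and in their list of 45 Ras and Rap genes 14 were lower and 6 higher. In the ion channel list 17 of 59 were lower and 7 higher, with Kcnn4, a calcium-activated potassium channel of blood cells, at -1.21.

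Adhesion genes followed with a mixed picture. Of 28 integrins and partners, 11 were lower and 3 higher (median -0.20, and -0.02, -0.14 and -0.31 within numbers 1, 2 and 3). Itgb1, the common beta 1 chain, had 2947 to 4821 in R98S (median 3591) and 4552 to 5997 in WT (median 5320.4) (log2 fold change -0.50 with SE 0.10, limma adjusted p 0.0012). Tln2, a talin, and Parvb, a parvin, both linkers of integrins to actin, were lower, at -0.56 and -2.43, whereas Itga7, an integrin alpha chain that binds laminin, was higher (38.9 to 86.8 in R98S (median 54.5) and 0 to 30.7 in WT (median 15.8), log2 fold change 2.61 with SE 0.65, limma adjusted p 0.00738). Of 40 leukocyte surface and homing molecules 13 were lower, 9 of them by more than 1, and 8 higher. Cd180, a Toll-like receptor homologue of B cells, had 30.7 to 167 in R98S (median 81.3) and 249 to 931 in WT (median 530.1) (log2 fold change -2.70 with SE 0.38, limma adjusted p 9.1e-05). Gpr183, the oxysterol receptor that guides B cells, was higher by 5.99. Of 13 S100 proteins and annexins 5 were lower and 3 higher (median -0.43), 6 of 9 R98S libraries lay below all of WT, and the lower calls came to 3 without WT clone 28. Among the annexins, Anxa4 was lower (-0.58), and Anxa6 and Anxa11 were higher (0.57 and 0.58). Anxa2 was lower (-0.66), a call lost without number 2, without WT clone 28 or with no replicate block. In these fits the log2 fold change of Anxa2 was -0.52, -0.58 and -0.68.

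Lymphoid and myeloid programmes were each raised in part and lowered in part. Of 48 antigen receptor signalling components 16 were higher and 12 lower, with 7 higher and 6 lower by more than 1. Sh2d2a, an adaptor of T cell receptor signalling, had 186 to 418 in R98S (median 346) and 0 to 49.1 in WT (median 6.15) (log2 fold change 5.34 with SE 0.62, limma adjusted p 1.5e-05). Grap2, an adaptor that pairs with SLP-76, had 0 to 98.2 in R98S (median 7.58) and 166 to 791 in WT (median 515) (log2 fold change -5.29 with SE 0.66, limma adjusted p 2.7e-05). Among 44 granule, mast cell and myeloid genes 11 were higher and 12 lower, most of them by more than 1 (8 and 8). Cpa3, the mast cell carboxypeptidase, and Tph1, which starts serotonin synthesis, were higher by 3.33 and 3.25, while Prtn3, a neutrophil protease, and F13a1, a coagulation factor of monocytes, were lower, at -2.44 and -5.96. F13a1 was at -8.07, -2.83 and -7.52 within numbers 1, 2 and 3, and at -7.17, -7.39 and -2.91 in clones 11, 13 and 35 relative to WT. The list median within the 3 numbers was 0.38, 0.26 and -0.40, so that the direction of the list as a whole depended on the number. Cpa3 illustrates the spread within R98S, with 192 to 2228 in R98S (median 512) and 14.3 to 298 in WT (median 50.6). Since the libraries are bulk RNA, more cells that express a gene and more RNA per cell cannot be told apart.

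Haematopoietic transcription factors had 17 of 52 lower and 11 higher (median -0.13). Lmo2, a bridging factor of blood stem cells, had 72.7 to 244 in R98S (median 98.6) and 171 to 555 in WT (median 314) (log2 fold change -1.33 with SE 0.22, limma adjusted p 4.3e-04). Lyl1, a helix-loop-helix partner of Lmo2, was lower as well (-1.13). Lmo2, Lyl1 and Cbfa2t3 are known to meet in a complex of blood progenitors, whose further members Gata1 (-0.41, limma adjusted p 0.131) and Gata2 (-0.19, limma adjusted p 0.299) did not pass the test, although Gata1 was called lower by DESeq2 and edgeR (adjusted p 0.0491 and 0.0886). Those fits treat the libraries of a clone as independent. With 3 clone means against 3 Gata1 was not called (limma adjusted p 0.161). With clones treated as correlated, Gata1 was called lower without R98S clone 11, without WT clone 36 and with no replicate block (limma adjusted p 0.0714, 0.079 and 0.0994). Mef2d, a MADS box factor, was lower, at -0.43. Meis2, a homeobox factor, was higher by 1.17, and Aire, known for driving tissue antigens in the thymus, by 4.56 from levels near 0. In TGF-beta, Wnt and Notch signalling 8 of 42 (19.0%) were lower and 3 (7.14%) higher, where all genes tested had 17.1% and 15.3%. The lower genes include Smad3 (-2.46) and Rbpj, the DNA-binding partner of Notch (-0.89). Interferon and NF-kB response genes had 15 of 68 higher and 5 lower, with opposite members such as Oas2 (3.03) and Mx1 (-3.26). Erythroid and haem genes had 8 of 33 lower and 4 higher, including Fech, the last enzyme of haem synthesis (-0.52).

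Of 136 chromatin modifiers 26 (19.1%) were lower and 13 (9.56%) higher, against 17.1% and 15.3% of all genes tested. A single called member was past 1 on the log2 scale. Setdb1, a histone H3 lysine 9 methyltransferase, was lower, at -0.43, and Kat8, an acetyltransferase of histone H4, was higher by 0.62. Splicing factors had 10 of 113 higher and 16 lower, led by Hnrnpa1 (-0.62, limma adjusted p 1.4e-04), a gene with many processed copies. Vesicle trafficking genes had 35 of 156 lower and 17 higher, with the sorting nexin Snx9 at -3.17 and Itsn1, an endocytic scaffold, at -3.11. In antioxidant genes 14 of 58 were lower and 5 higher. There Gstm2, a glutathione transferase with related copies, was lower, at -4.81, Prdx2, a peroxiredoxin, at -0.90, and Abcc1, an exporter of glutathione conjugates, at -0.80. Without the 2 libraries between the genotypes 7 of the named genes moved by more than 1.5 times. They were F13a1 (-6.99), Grap2 (-6.08), Id1 (-3.54), Itsn1 (-3.76), Parvb (-3.03), Snx9 (-3.81) and Mcpt8 (2.52), of which Mcpt8 moved towards 0 and the others away from it. Solute carriers (31 of 185 higher, 29 lower) and ubiquitin ligases (41 of 224 higher, 38 lower) were called at shares near those of all genes. Of 37 cholesterol synthesis genes 5 were lower and 1 higher, Abcg1, a sterol exporter, being lower (-0.89) and Dhcr7, the last enzyme of the pathway, higher (0.71).

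The called genes were not evenly spread over the chromosomes. Of the tested genes, 10600 (95.2%) had a position in the GENCODE M21 annotation. On chromosomes 1, 4, 7 and 14 between 28.4% and 29.7% of the tested genes were called higher, and the median log2 fold changes were 0.16, 0.12, 0.13 and 0.17. On chromosomes 3 and 8 the shares called lower were 38.6% and 33.1% and the medians -0.22 and -0.18. Chromosomes 1, 4, 7 and 14 held 45.2% of the genes called higher by under 0.5, 46.2% of those in the moderate class and 35.8% of those higher by 1 or more, against 23.2% of all tested genes with a position. Chromosomes 3 and 8 held 23%, 20.3% and 17.5% of the genes called lower in these classes, against 10.2% of all. The shifts were not equal in the 3 R98S clones. The medians of chromosomes 1 and 14 were 0.28 and 0.31 in clone 11 and 0.20 and 0.21 in clone 13, but -0.03 and -0.02 in clone 35. Chromosome 3 had medians of -0.28 and -0.31 in clones 13 and 35 and -0.06 in clone 11. Chromosomes 4, 7 and 8 shifted in all 3 R98S clones, and chromosomes 2 and 11 were raised in clone 13 alone (0.24 and 0.25). Among WT clones chromosome 12 was lower in clone 29 than in the mean of the other WT clones (-0.26).

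Chromosome copy number was not measured in these libraries, and its part in the calls was not tested. With the median of each chromosome taken out of every library, an alternative added after the data were seen, 3948 genes were called (35.5%), 1854 higher and 2094 lower, and 3012 of the 3604 genes were among them with the same sign. In that fit 59 of the 88 mitosis genes were lower and 1 higher, 38 of 74 replication genes were lower and 2 higher, 46 of 154 ribosome assembly genes were higher and 3 lower, and 35 of 100 lysosome genes were higher and 10 lower. The numbered zinc finger protein genes were also counted by chromosome. Of 276 tested, 32 were higher and 29 lower, and 17 of the higher ones were among the 73 on chromosome 7, where 29.7% of all tested genes were higher. On chromosomes 8 and 9 none of 17 and 1 of 16 was higher and 4 and 8 were lower, while 33.1% and 21.2% of all tested genes there were lower. On chromosomes 13 and 17, where 31 and 36 were tested, 0 and 2 were higher.

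**Figure D5:**
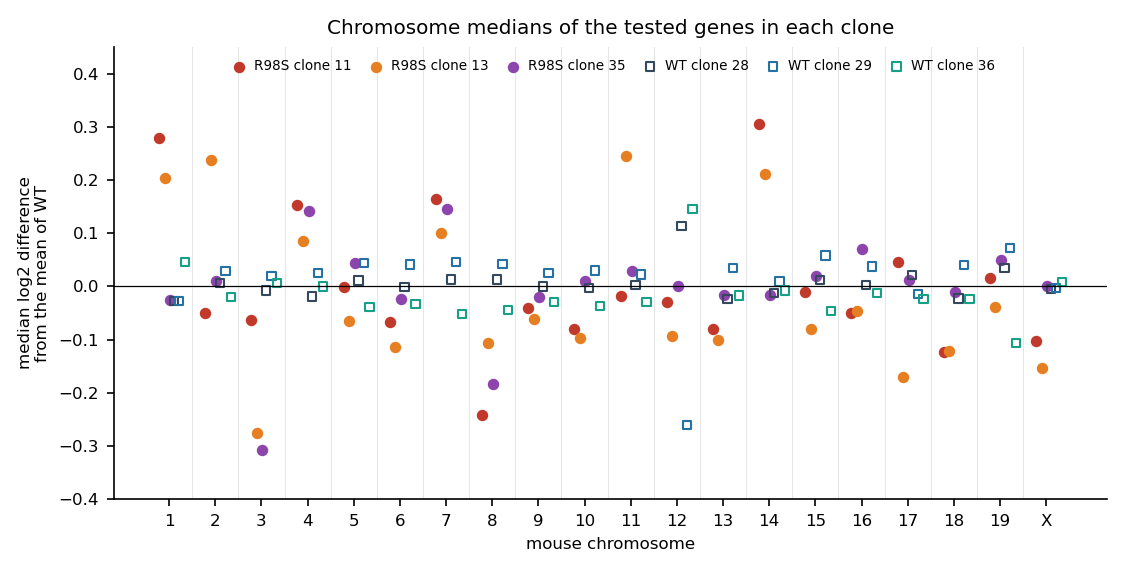
Median log2 difference from WT over the tested genes of each mouse chromosome with at least 100 tested genes, for each of the 6 clones. The vertical axis is log2 and the horizontal axis the chromosome. R98S clones are set against the mean of the 3 WT clones, and each WT clone against the mean of the other WT clones. Filled circles are the 3 R98S clones and open squares the 3 WT clones, and chromosomes 4, 7 and 8 have all 3 R98S clones on 1 side of WT while on chromosomes 1, 3 and 14 a single R98S clone lies nearer to WT than the other 2.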

How the data were processed

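Total mRNA was sequenced from 17 libraries of 6 Ba/F3 clones. Per the methods of the study, libraries were made with a stranded poly(A) kit, and Bowtie2 served to discard rRNA and tRNA. The other reads were aligned to mouse GRCm38 (mm10) with TopHat2 2.0.11 per the submitters' processing notes, which also name SAMtools, HTSeq and DESeq2. Use of strand in counting is not given in the sources used here, so overlapping and near-identical genes are uncertain. Of the genes named, Pdha1 shares 16.1% of its exonic bases with Map3k15, and Atp6v0b, E2f8, Galnt6, Psph and Rgp1 share 10.4% to 12% with other genes. The unit of the deposited table is a signal, namely read counts per gene that the authors divided by DESeq2 size factors. Whole reads were recovered from them (100% of values, within 0.01 reads), and libraries held 9338671 to 22059792 reads. No 2 libraries agreed within sampling noise, as the closest pair had a chi-square per gene of 20.7.

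On the scale of log2(value + 1), the genes whose mean value reached 10 were fitted in limma 3.58.1 (R 4.3.3) by genotype and replicate number, with the clone as a random effect (consensus correlation 0.105) and a variance trend. All tests were two-sided, with Benjamini-Hochberg adjustment over 11133 genes and a threshold of 0.1. The study used DESeq2 at this threshold. DESeq2 1.42.0 and edgeR 4.0.16 on recovered reads were alternatives. Across genes, departures from the genotype means were correlated between R98S and WT of the same number. The r was 0.62, 0.55 and 0.48 for numbers 1, 2 and 3, which pairs the numbers. Those of other pairs were negative, which largely follows from taking out the genotype means and adds no support. Genes named are Rpl10, Psph, the 12 strong and 8 moderate genes per direction with the smallest adjusted p among those with a mean of at least 100 and clone means apart, and up to 6 members per list with the smallest adjusted p, and Uhrf1, Pola1, Herpud1, Pgk1, Gata1, Gata2, Il3ra, Mcpt8 and Hdc were chosen after their values were seen. Some genes and a list that meet these rules are not reported here. Members, lists and motifs (17 searched, 5 shown) were chosen with earlier results of these data known, so no list was tested as a set. Lists share members. Each list was described by its counts and its median beside those of all genes. Positions came from GENCODE M21, in which 36776 of 41255 symbols matched, and promoters from RefSeq.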

Additional observations from a re-analysis of the deposited data

Results flagged for a closer look

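In 26 of 320 groups of values, each the R98S or the WT libraries of a named gene, a single library lay apart from the others of its genotype by a gap larger than the 95% limit of Dixon's test for the range. Chance flags about 1 in 20 groups of independent normal values, and here the share was 8.12%. The values were counts without a log, from libraries that share clones and numbers, so 8.12% cannot be read as an excess. The values below are normalized counts. Eif2a at 2647 (others 1432 to 1928), Gng2 at 173 (others 4.01 to 84.3), Itsn1 at 1377 (others 13.2 to 315), Pdha1 at 3240.2 (others 2169 to 2589.7) and Smad3 at 450.1 (others 14.3 to 121) were highest of the genotype in the library of R98S clone 13 with number 2. Atf5 at 2071 (others 141 to 1053) and Oas2 at 62.9 (others 0.926 to 16.6) were highest of the genotype in the library of WT clone 28 with number 3. Cln3 at 116 (others 171 to 217) was lowest of the genotype in the library of WT clone 28 with number 3. Abcc1 at 4088 (others 2369.7 to 3063), Aire at 2.01 (others 0 to 0) and Slc2a3 at 32793 (others 7061 to 17443) were highest of the genotype in the library of WT clone 36 with number 2. Ccnf at 1359 (others 1013 to 1166) and Gpr183 at 1506 (others 194 to 845) were highest of the genotype in the library of R98S clone 11 with number 2. Gldc at 187 (others 30.3 to 85.2) was highest of the genotype in the library of R98S clone 35 with number 1. Pola1 at 1544 (others 1928 to 2239) was lowest of the genotype in the library of R98S clone 35 with number 1. Dusp6 at 1874 (others 602 to 1111) and Gstm2 at 35.6 (others 1.11 to 12.4) were highest of the genotype in the library of R98S clone 35 with number 2. Gpr183 at 48 (others 0.943 to 9.26) and Mcpt8 at 173 (others 1.85 to 38.4) were highest of the genotype in the library of WT clone 28 with number 2. Nol12 at 1551 (others 511 to 823) and Rpl10 at 5715 (others 620.3 to 1756) were highest of the genotype in the library of WT clone 29 with number 1. Socs5 at 961 (others 603 to 739.5) and St3gal4 at 4164 (others 2247 to 3141) were highest of the genotype in the library of WT clone 36 with number 3. Tulp1 at 578 (others 192 to 386) was highest of the genotype in the library of R98S clone 13 with number 1. Dhcr7 at 1406 (others 697 to 1033) was highest of the genotype in the library of R98S clone 13 with number 3. Arl14ep at 4256 (others 1218 to 2505) was highest of the genotype in the library of WT clone 29 with number 3. The library of R98S clone 13 with number 2, one of those between the genotypes, held 5 of the flags, and in each of the 5 genes its value lay on the side of WT. The fold changes without that library and the number 2 library of R98S clone 35 had the same sign and were called for every named gene called with them except Mcpt8, whose call was lost. No explanation of these values was tested.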

How the results depend on the processing

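In all, 28 alternatives were run, of which 2, on chromosomes, were added after the data were seen. The replicate numbers paired the libraries, and with no replicate block the count of called genes was 3762. The block with 3 clone means against 3 gave 2861, edgeR 4307 and DESeq2 4394. TMM scaling gave 1838 higher and 1783 lower, quantile normalization 1806 and 1797, and no filter on low values 3732 of 21950 genes. Leaving out replicate numbers or clones moved the calls to between 1843 (without number 3) and 3837 (without R98S clone 13), with 854 to 1837 higher and 989 to 2000 lower. The count was 2005 without WT clone 28. Within numbers 1, 2 and 3 alone the calls were 1366 (705 higher, 661 lower), 241 (129 and 112) and 1047 (422 and 625). Without the genes of chromosomes 1, 3, 4, 7, 8 and 14 the count was 2215 of 7589 genes, 909 of them higher, where fewer genes were tested. All 156 named genes that were called had the same sign in every alternative that tested them. The alternatives refit the same libraries, and most of these genes were named for a small adjusted p, so this is no independent check. Rpl10 ranged from -0.38 to 0.27 as numbers or clones were left out, was above 0 without number 1 (0.05) or WT clone 29, and was 0.26 within number 2. Without number 3 the calls of Nupr1, Slc1a4, Herpud1, Uhrf1, Pola1 and Rab27b were lost (limma adjusted p 0.152, 0.305, 0.216, 0.127, 0.191 and 0.106). The call of Anxa2 was lost without number 2, without WT clone 28 and with no replicate block (limma adjusted p 0.113, 0.156 and 0.104), and Pola1 was also lost without WT clone 28 or 29 and Slc1a4 and Herpud1 without WT clone 29. The call of Mcpt8 was also lost without number 1, R98S clones 11 or 35 or WT clones 29 or 36 (limma adjusted p 0.114 to 0.17). Gata1 was called lower in 6 alternatives. Il3ra ranged from -0.051 without R98S clone 11 to 0.363 without R98S clone 13, where it was called higher (limma adjusted p 0.0494), and was -0.054 with chromosome medians taken out and -0.008 within number 3. Of 1456 list medians under the alternatives, 1298 stayed within 1 SD between clones of the reported value. For this SD each WT library was set against the other WT libraries of its number, which widens the WT part. Levels under about 100 normalized counts rest on few reads, and with 3 clones per genotype differences between single clones and between genotypes are hard to separate.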

Other observations

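Several gene groups not described above held calls in both directions. The called share was 30.0% in phosphoinositide, PI3K and mTOR signalling and 32.7% in apoptosis regulators, near the 32.4% of all genes tested. Of 76 actin and myosin genes 20 were lower and 10 higher, among them Tpm1, a tropomyosin (-0.86), and Coro2a, a coronin (2.01). Of 60 genes of phosphoinositide, PI3K and mTOR signalling 11 were higher and 7 lower, with the PI3K catalytic subunit Pik3cb at -0.75, Depdc5, which restrains mTORC1 when amino acids are short, at -0.67 and the phosphatase Inpp4a at 0.83. Of 55 apoptosis regulators 11 were lower and 7 higher, with Bid, which links death receptors to the mitochondrion, at -0.62 besides Bcl2l1, where 17.7% of the exonic bases of Bid lie in Bcl2l13 on the opposite strand.

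Fatty acid and phospholipid genes had 21 of 96 higher and 19 lower. Acss2, which makes acetyl-CoA from acetate, had 1046 to 1743 in R98S (median 1326) and 353 to 866 in WT (median 596) (log2 fold change 1.19 with SE 0.14, limma adjusted p 2.3e-05), and Fads1, a desaturase of polyunsaturated fatty acids, was lower (-0.82). Glycosylation enzymes had 17 of 80 lower and 15 higher, with Galnt6, which starts mucin-type chains, at 1.06. Rab GTPases had 8 of 43 lower and 6 higher, with Rab27b, of granule secretion, at -0.96, a call lost without number 3 (limma adjusted p 0.106). Among chaperones and ER stress genes 12 of 87 were lower and 9 higher (24.1% called), with Dnaja1, a partner of HSP70, at 0.68. Of 45 p53 targets 7 were higher and 5 lower (26.7% called), with Gadd45g at -1.37. For these 2 groups the share over all genes tested was 32.4%.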
